A study of Caenorhabditis elegans with 27 samples.

Results

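A set of 98 Caenorhabditis elegans genes without a gene-class name had very few reads in control RNAi animals and were readily counted in gld-2(RNAi) animals. They were chosen by their mean level in mRNA selected from total RNA of whole worms (input). The level is in CPM, the count divided by the library total and scaled to a common size. This mean was below 1 CPM over the 3 control libraries and at least 10 CPM over the 3 gld-2(RNAi) libraries, and the deposited tables gave the gene its sequence name only. The 98 genes were taken from 8966 features without a gene-class name and from 45461 features in all, and 25 genes with a gene-class name lay within the same limits. Because the choice used gld-2(RNAi) and control input, the difference between these groups is described without a test. The control input libraries enter again in the comparison with gld-4(RNAi) input, where the limit of 1 CPM keeps their means low.

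The study grew the wild-type strain N2 on bacteria that produced double-stranded RNA against gld-2, against gld-4 or, as control, carried the empty vector, and harvested young adult whole worms. For each of these 3 conditions, mRNA was sequenced from input, from the polysomal part (P) and from the non-polysomal part (NP) of a sucrose gradient, with 3 libraries in each of 9 groups. Per the study, gld-2(RNAi) animals were sterile and gld-4(RNAi) animals fertile. No label says that the replicates came from separate cultures, so p-values measure only the spread between these libraries. The 27 libraries held 12160686 to 18132556 counts. The targeted gld-2 mRNA had 3.76, 9.32 and 4.74 CPM in gld-2(RNAi) input, against 52.7, 79.0 and 93.4 CPM in control input. The targeted gld-4 mRNA had 8.05, 17.2 and 15.6 CPM in gld-4(RNAi) input, against 110, 172 and 172 CPM in control input. All 8 body wall muscle and all 9 intestine markers, which mark the main somatic tissues of the whole worm, were counted in every group.

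GLD-2 and GLD-4 are cytoplasmic poly(A) polymerases, enzymes that lengthen the poly(A) tails of mRNAs outside the nucleus, and both act in the germ line. The hermaphrodite germ line makes sperm in the last larval stage and switches to oocytes in the adult, so that an adult normally holds finished sperm and transcribes few sperm genes. In a sucrose gradient, mRNAs that carry many ribosomes run into the polysomal part, and mRNAs with few or none stay in the non-polysomal part.

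In a later annotation (WBcel235), which matched all 98 sequence names, 97 of the genes were protein-coding and 1, F55C5.2, was a pseudogene. In that release 5 of them carried a gene name. These were F21F3.3 (icmt-1, named for isoprenylcysteine carboxyl methyltransferase), C50C3.2 (spc-2), F56F3.4 (mstr-2), F27C8.5 (pei-1, a component of sperm germ granules) and C24D10.1 (ptp-5.1, of the protein tyrosine phosphatase class). No role is given here for the other members, which the sources do not annotate. By chromosome, 31 of the 98 genes were on IV, 22 on I, 19 on III, 15 on II and 11 on V, and 0 were on X. Among the 11493 protein-coding genes tested, 17.4% were on IV and 12.9% (1482 genes) on X. The 97 encoded proteins had a median of 351 residues (lowest 63 in F56D6.9, highest 2236 in C50C3.2), against 372 residues for all protein-coding genes tested, and both sets had a median of 6 coding exons. Only F36A2.14 and F36A2.12, on chromosome I and the same strand, were direct neighbours among the annotated genes.

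The genes held 7 pairs whose members had equal numbers of residues and coding exons. ZC317.6 and C18G1.9, both on V, shared 346 residues, 6 coding exons and 1114 exon bases, and C02B10.6 and F36H12.10, both on IV, shared 398 residues, 3 coding exons and 1269 exon bases. The other pairs were R13H9.6 with F36H12.9 (380 residues), C34D4.2 with F23B12.1 (329), F58H1.6 with Y119C1B.1 (273), T28H11.7 with ZC477.7 (194) and F52F12.5 with W09D6.4 (148). Their sequences were not compared, and since the authors kept reads with a single alignment, counts within such a pair are uncertain if the copies are near-identical. Of the 98 genes, 18 overlapped another annotated gene, 14 of them only on the opposite strand. The strand setting of the counting is not given in the sources used here. The overlap weighs most where the other gene is abundant, as for B0280.17, B0393.4, Y47G6A.13, Y49E10.10 and T28H11.7. The partner of T28H11.7, ssq-4, itself had a mean of 140 CPM in gld-2(RNAi) input and 13.9 CPM in control input. The partner of B0393.4, B0393.3, had 56.7 CPM in gld-2(RNAi) input and 229 CPM in control input.

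Replicate 1 stood apart in every group. The 98 genes together had 3055, 871 and 738 CPM in gld-2(RNAi) input, 275, 67.5 and 62.6 CPM in gld-4(RNAi) input, and 117, 43.4 and 36.4 CPM in control input, in the order of replicates 1, 2 and 3. Over the 9 groups the sum in replicate 1 was 2.05 to 4.52 times the mean of replicates 2 and 3, and 95 to 97 of the 98 genes were higher in replicate 1. F56D6.9 was the exception in all 9 groups: it was lower in replicate 1. The choice of genes rested on this library: without gld-2(RNAi) replicate 1, 12 of the 98 genes kept a mean of at least 10 CPM, and no other unnamed gene entered. Without replicate 1 of either condition, 48 unnamed genes met the limits, of which 12 were among the 98. The counts of the 98 genes called in each comparison are therefore given also without replicate 1 of any group, an alternative added after the data had been seen. Other values use all replicates unless stated.

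A list of 77 sperm markers (genes named msp-, ssp-, spe-, fer- or nspd-, with gsp-3 and gsp-4), which shares no gene with the 98, moved with them. Its summed level was 9492, 4371 and 4284 CPM in gld-2(RNAi) input, 3427, 670 and 663 CPM in gld-4(RNAi) input, and 1707, 518 and 578 CPM in control input. In replicate 1 this sum was 2.05 to 7.41 times the mean of the others. The summed level of 10 sperm fate regulators (fog, fem and tra genes, spe-44 and her-1) did not move in this way. This sum was 336, 382 and 366 CPM in gld-2(RNAi) input, 590, 618 and 593 CPM in gld-4(RNAi) input, and 576, 550 and 522 CPM in control input. Single regulators went both ways. By the calls described below, 1 was higher and 3 lower in gld-2(RNAi) than in control in NP, and 0 higher and 2 lower in P. Their fitted log2 fold changes in NP ran from -1.92 to 2.32. In gld-4(RNAi) against control, 1 was called higher and 0 lower in each of input, NP and P. The summed level of 19 oocyte and eggshell genes was lower in gld-2(RNAi) input and higher in gld-4(RNAi) input than in control input. It was 5469, 8038 and 8537 CPM in gld-2(RNAi) input, 20899, 27644 and 29800 CPM in gld-4(RNAi) input, and 15990, 19684 and 20074 CPM in control input. In gld-4(RNAi) against control, 0 of the 19 were called in input, NP or P. Their median log2 fold changes were 0.51, 0.26 and 0.06. None of these markers was at 0 in all 3 libraries of a group. In whole worms, fewer cells of a type and less RNA per cell cannot be told apart, and the part of these lists in the results was not tested.

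**Figure D1:**
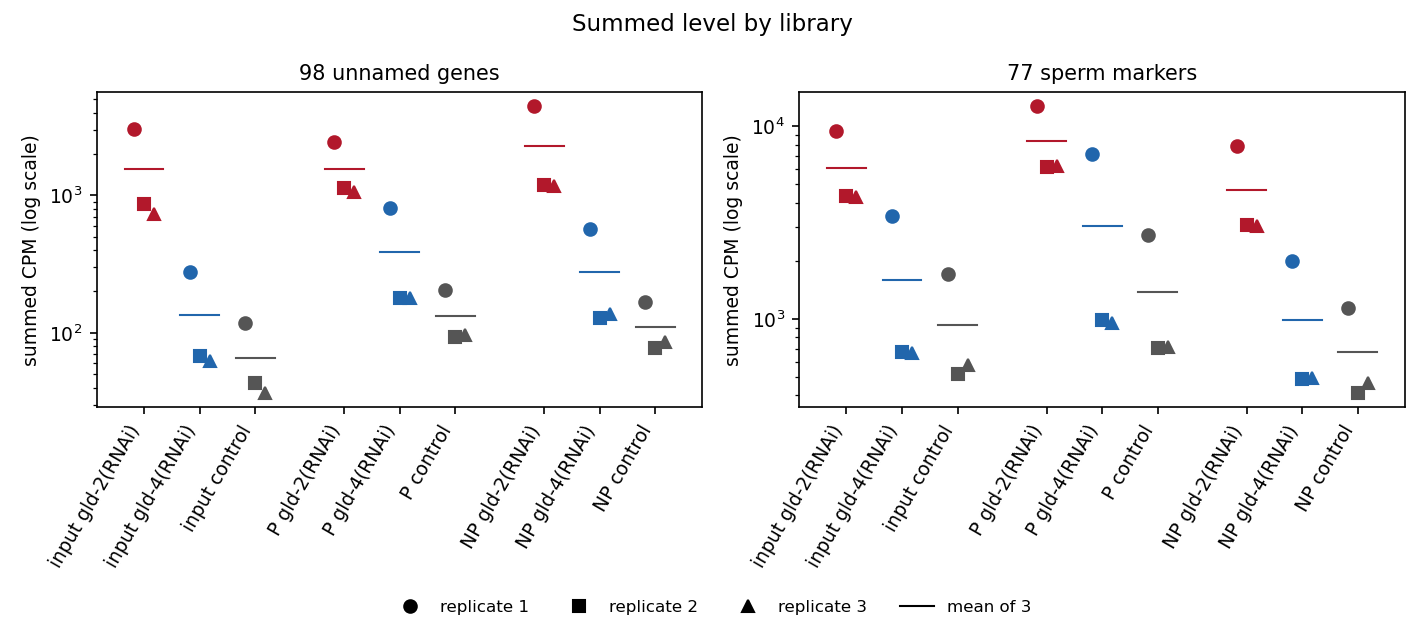
Summed level, in CPM on a log axis, of the 98 unnamed genes (left) and of 77 sperm markers (right) in each of 27 libraries; symbols mark replicates 1 to 3, colours the RNAi condition, and lines the mean of 3. In every group replicate 1 lies above replicates 2 and 3, and for the 98 genes all gld-2(RNAi) libraries lie above all control libraries of the same fraction.

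In input, the mean of the 98 genes over the gld-2(RNAi) libraries ran from 10.1 to 121 CPM with a median of 13.3 CPM, against 0.185 to 0.994 CPM with a median of 0.688 CPM in control. In gld-4(RNAi) input the means ran from 0.179 to 5.10 CPM with a median of 1.28 CPM. The 12 highest genes held 25.5% of the summed level in gld-2(RNAi) input, and R09E10.2 alone held 7.79%. The lower limit of the choice itself spreads this sum over the genes. For every one of the 98 genes the lowest gld-2(RNAi) library was above the highest control library, while 22.5% of the 11961 features tested did so. Against gld-4(RNAi) input this held for 94 genes, where 23% of all features did so. The choice fixes most of this separation, and nothing is read from it.

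R09E10.2, on chromosome IV, encoding 198 residues in 2 coding exons, stood above all others. It had 167, 100 and 95.6 CPM in gld-2(RNAi) input, 0.536, 0.589 and 0.394 CPM in gld-4(RNAi) input, and 0.411, 0.266 and 0.227 CPM in control input. Per kilobase of exon its gld-2(RNAi) input level was 175 CPM, against 28.1 CPM for ZC317.6, the next gene on this scale, and a median of 11.5 CPM over the genes. The gld-4(RNAi) and control libraries of R09E10.2 overlapped, at 4 to 9 counts each. ZC317.6 had 65.2, 16.5 and 12.3 CPM in gld-2(RNAi) input, 2.88, 0.851 and 1.24 CPM in gld-4(RNAi) input, and 1.56, 0.465 and 0.511 CPM in control input. Its replicate 1 was the highest library of each condition.

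The other genes among the 12 highest in gld-2(RNAi) input by CPM were Y57G7A.6, F21F3.3, C34F11.5, M70.3, C02B10.6, F36H12.10, C08F8.6, F46A9.1, C09B9.2 and Y48B6A.5. They differed in how far replicate 1 was above the others. C34F11.5 had 46.9, 23.2 and 16.2 CPM in gld-2(RNAi) input, against 1.32, 0.730 and 0.511 CPM in control input. F46A9.1 had 51.0, 7.34 and 5.29 CPM in gld-2(RNAi) input, against 0.822, 0.133 and 0.114 CPM in control input. C02B10.6 and F36H12.10, the pair of equal size, had much the same levels: 56.4, 7.53 and 6.62 CPM and 51.2, 8.81 and 8.33 CPM in gld-2(RNAi) input. F46A9.1, C02B10.6 and F36H12.10 were below 10 CPM in both gld-2(RNAi) replicates 2 and 3, as was M70.3 in replicate 3, whereas the other 8 were above it in all 3.

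**Figure D2:**
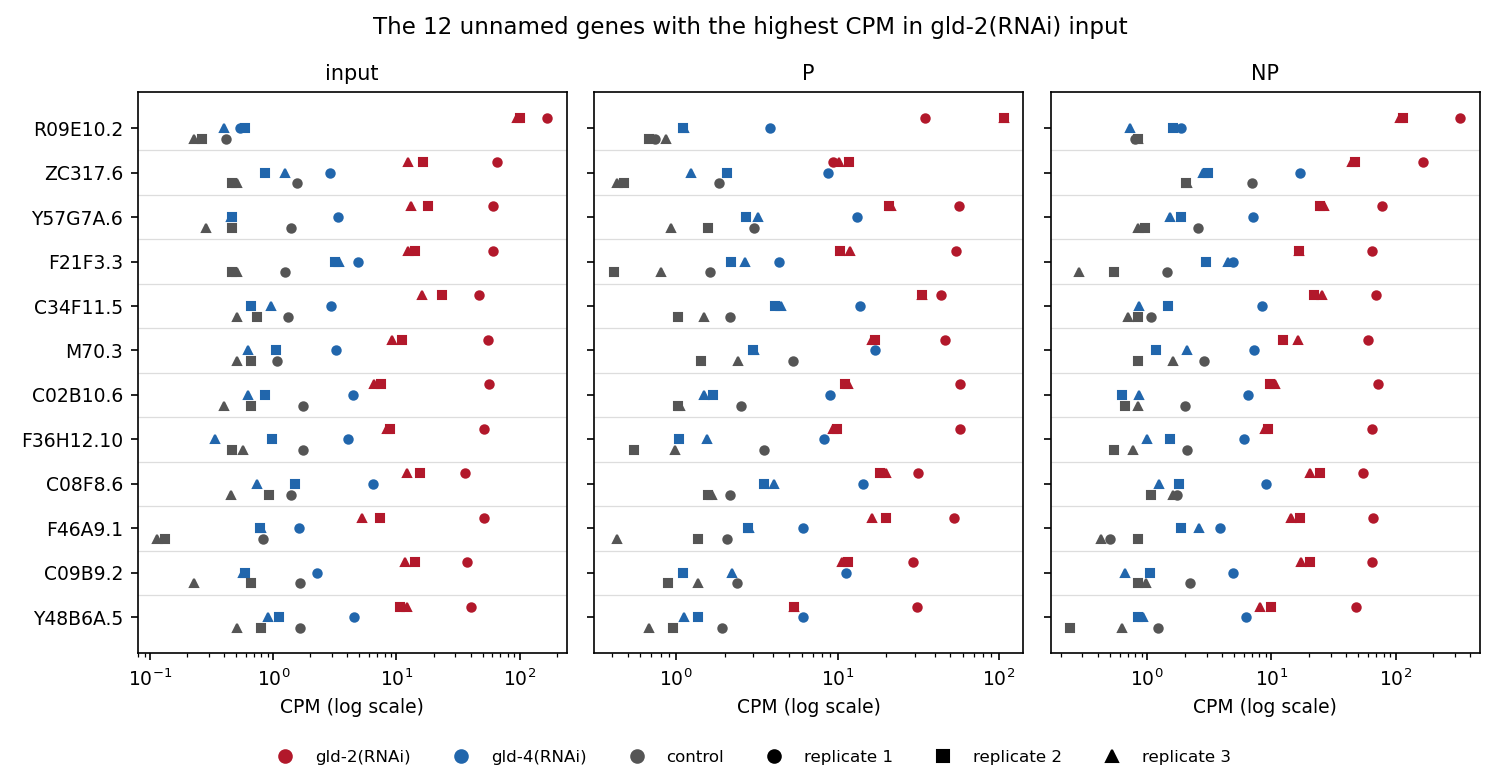
CPM on a log axis of the 12 unnamed genes with the highest mean in gld-2(RNAi) input, in input, P and NP libraries; colours mark the RNAi condition and symbols the replicate. R09E10.2 lies at 95.6 to 167 CPM in gld-2(RNAi) input and below 1 CPM in gld-4(RNAi) and control input, and its P library of gld-2(RNAi) replicate 1 (34.8 CPM) is lower than those of replicates 2 and 3.

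The limits cut through a continuous range. Just inside the limit of 10 CPM in gld-2(RNAi) input were Y37D8A.5 (10.1 CPM), F36A2.12 (10.1 CPM) and T05F1.5 (10.1 CPM), and just outside were M88.3 (9.99 CPM), F40F12.3 (9.96 CPM) and C04G2.2 (9.94 CPM). Just inside the limit of 1 CPM in control input were F58H1.6 (0.994 CPM), Y48B6A.5 (0.984 CPM) and ZK1053.2 (0.955 CPM), and just outside were Y47G6A.26 (1.004 CPM), Y38H8A.4 (1.01 CPM) and C16A11.7 (1.01 CPM).

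The NP and P libraries were not used in the choice, and they show where in the gradient these mRNAs were found. As in input, the summed level of the 98 genes was highest in replicate 1 of every group, and a difference in these libraries is not taken as independent support for the one in input. Calls are from edgeR's quasi-likelihood test, Benjamini-Hochberg adjusted over 11961 features, and needed an adjusted p no higher than 0.05 with a fitted change of 2-fold or more. In NP, 98 of the 98 genes were higher in gld-2(RNAi) than in control, where 12.9% of all features were called higher, with a median log2 fold change of 4.38 over the genes and 0.03 over all features. In P, 95 of the 98 genes were called higher, where 9.14% of all features were, with a median log2 fold change of 3.66 over the genes and -0.01 over all features. Of the 25 named genes within the same limits, 25 were called higher in NP and 24 in P. Of 71 sperm markers tested, 63 were called higher in NP and 43 in P (66 and 67 with the replicate number as a block), and of the 19 oocyte and eggshell genes 13 were called lower in each, with 1 higher in NP.

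R09E10.2 had 332, 114 and 108 CPM in gld-2(RNAi) NP, against 0.790, 0.838 and 0.840 CPM in control NP (log2 fold change 7.85 ± 0.77, SE, edgeR adjusted p = 0.00042). It had 34.8, 107 and 107 CPM in gld-2(RNAi) P, against 0.74, 0.682 and 0.864 CPM in control P (log2 fold change 6.79 ± 0.49, SE, edgeR adjusted p = 0.00086). These were the largest fitted changes among the 98 genes in both fractions. The groups lay far apart in each. ZC317.6 had 167, 47 and 44.4 CPM in gld-2(RNAi) NP, against 6.96, 2.04 and 2.10 CPM in control NP. In P it had 9.42, 11.7 and 10.2 CPM in gld-2(RNAi), against 1.85, 0.477 and 0.432 CPM in control. Its excess in replicate 1 was thus present in gld-2(RNAi) NP and absent from gld-2(RNAi) P.

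The other 10 of the 12 highest genes had fitted log2 changes of 4.12 (M70.3) to 5.84 (F46A9.1) in NP and of 3.24 (M70.3) to 4.91 (F21F3.3) in P, and all were called in both. The smallest change in NP was that of B0280.17, at 2.95 on the log2 scale, with a mean of 38.4 CPM in gld-2(RNAi) NP and 5.14 CPM in control NP. The lowest gld-2(RNAi) library was above the highest control library for 97 genes in NP (27.9% of all features) and for 98 in P (19.7%). F56D6.9 was the only gene whose NP libraries overlapped, with 1.86, 19.3 and 18.1 CPM in gld-2(RNAi) and 0.215, 1.2 and 1.89 CPM in control. In P, the 3 genes not called were F47D12.7 (log2 fold change 2.01, adjusted p = 0.145), F54H5.5 (2.22, adjusted p = 0.090) and F55C5.2 (2.60, adjusted p = 0.068). All 3 had groups of P libraries that did not overlap. F55C5.2, the pseudogene, had only 3.47, 0.658 and 0.706 CPM in gld-2(RNAi) P, against 0.296, 0.273 and 0.308 CPM in control P.

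With the replicate number as a block, 98 genes were called in NP (13.8% of all features) and 98 in P (11.7%). Without replicate 1 of any group, 98 were called in NP (15.4%) and 97 in P (13.1%), where F55C5.2 was not called. Leaving out a single control library of replicates 2 and 3 lowered the counts: to 67 and 62 in NP, and to 26 and 28 in P. The features called higher fell too, from 1544 to 847 and 828 in NP, and from 1093 to 319 and 294 in P.

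Compared with gld-4(RNAi), the genes were also higher in gld-2(RNAi), but in P by less. The gld-4(RNAi) libraries were not used in the choice, whereas the gld-2(RNAi) condition was chosen to be high. In NP the 98 genes together had 4453, 1198 and 1173 CPM in gld-2(RNAi), against 571, 128 and 136 CPM in gld-4(RNAi). In P they had 2469, 1128 and 1059 CPM in gld-2(RNAi), against 810, 181 and 178 CPM in gld-4(RNAi). In both fractions every gld-2(RNAi) sum was above every gld-4(RNAi) sum, and the gap was narrowest in P, where gld-4(RNAi) replicate 1 was the highest of its group.

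Per gene, 33 of 98 were called higher in NP of gld-2(RNAi) when set against gld-4(RNAi) (7.25% of all features), with a median log2 fold change of 3.06, and 8 of 98 in P (3.51% of all features), with a median of 2.27. Of these, 7 genes were called in both fractions. Of the 71 sperm markers, 11 were called higher in NP and 4 in P, and 67 and 63 with the replicate block. The 8 genes in P were R09E10.2 (log2 fold change 5.53 ± 0.76, SE, edgeR adjusted p = 0.0079), C50C3.2 (3.76), F21F3.3 (3.39), T08B6.9 (3.3), F46A9.1 (3.21), F44G3.7 (3.0), F35E2.9 (2.89) and C34F11.5 (2.53). R09E10.2 had 1.86, 1.60 and 0.724 CPM in gld-4(RNAi) NP and 3.81, 1.10 and 1.11 CPM in gld-4(RNAi) P, far below its gld-2(RNAi) libraries. The lowest library of gld-2(RNAi) was above the highest of gld-4(RNAi) for 92 genes in NP (24.1% of all features) and for 60 genes in P (13.1%).

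These counts depended on how replicate 1 was handled. With the replicate block 97 genes were called in NP (14.3% of all features) and 89 in P (11.2%), and without replicate 1 of any group 98 in NP (14.7%) and 97 in P (13.6%). Leaving out gld-4(RNAi) replicate 1 alone gave 93 in NP and 93 in P. Leaving out gld-4(RNAi) replicate 2 or 3 gave 2 in NP and 1 in P, leaving out gld-2(RNAi) replicate 1, 2 or 3 gave 12, 18 and 20 in NP, and 6, 1 and 1 in P. Calls over all features moved too. With gld-4(RNAi) replicate 1, 2 or 3 left out, 1505, 509 and 564 features were higher in NP, and 1440, 185 and 210 in P. With gld-2(RNAi) replicate 1, 2 or 3 left out, 726, 677 and 831 were higher in NP, and 421, 279 and 205 in P.

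**Figure D3:**
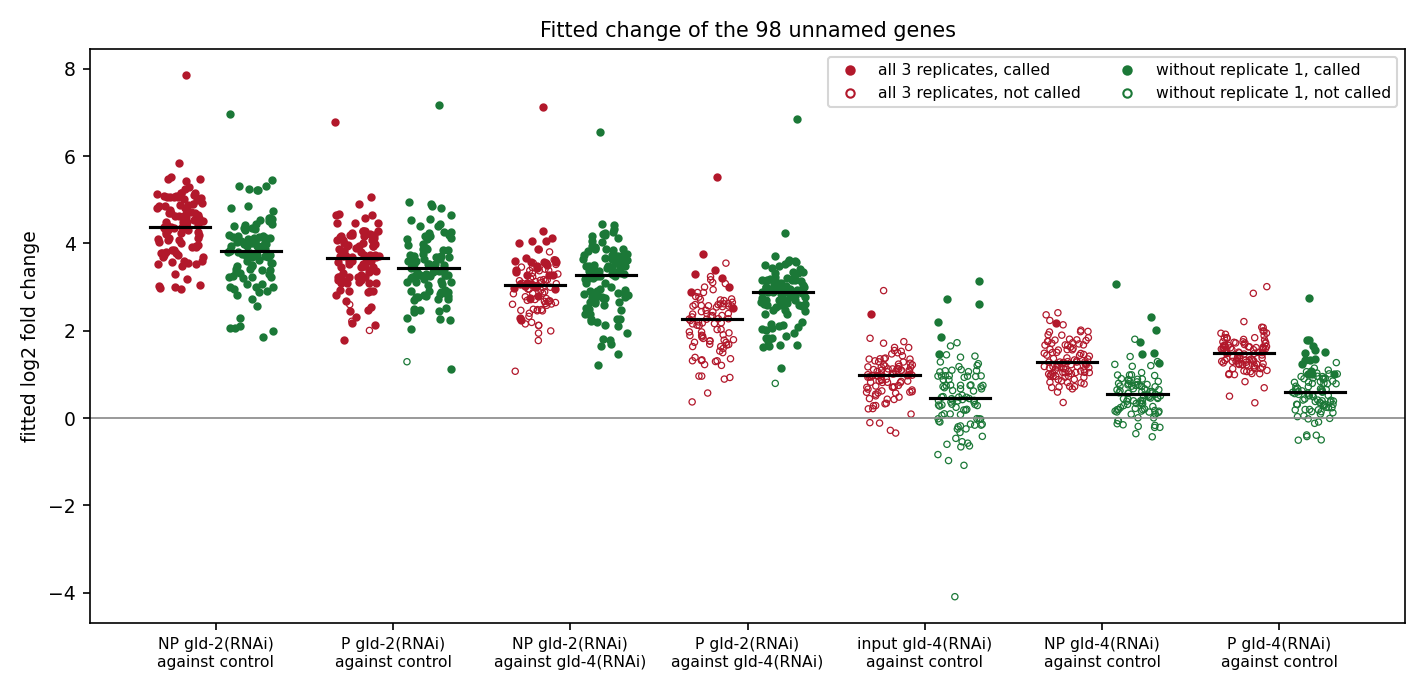
Fitted log2 fold change of each of the 98 unnamed genes in 7 comparisons, with all 3 replicates (red) and without replicate 1 of any group (green); filled points are called, open points are not, and bars are medians. Medians are 4.38 (NP) and 3.66 (P) for gld-2(RNAi) against control and 0.98 (input), 1.28 (NP) and 1.49 (P) for gld-4(RNAi) against control; the lowest point, in input gld-4(RNAi) against control, is T08B6.9, with 0 counts in gld-4(RNAi) replicates 2 and 3.

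Against control, most of the same genes were also higher in gld-4(RNAi) animals, by less than in gld-2(RNAi) animals, and few were called. The mean over gld-4(RNAi) libraries was above that of control for 94 of the 98 genes in input and for all 98 in NP and in P, and below that of gld-2(RNAi) in all 3. The medians of the fitted log2 fold changes were 0.98 in input, 1.28 in NP and 1.49 in P, against 0.01, 0.06 and 0.05 over all features. Called higher were 1 gene in input (0.184% of all features), 1 in NP (0.778%) and 0 in P (0.142%). None was called lower, where 0.945%, 0.878% and 0.234% of all features were in input, NP and P. In P, 4 genes had an unadjusted p under 0.05 by edgeR, where 2252 of the 11961 features did. DESeq2 called 2 genes higher in P, where it called 135 of all features higher. Of the 71 sperm markers, 0 were called higher in input, 1 in NP and 0 in P, and 7, 5 and 3 with the replicate block. Comparisons of gld-2(RNAi) and of gld-4(RNAi) against control share the control libraries. The choice kept the control input means below 1 CPM, so the comparison in input, its calls and its p-values are not independent of the choice. Control NP and P are of the same condition, which was chosen to be low. The 98 genes also passed the count filter through gld-2(RNAi) input, so shares of all features are not a like measure for them. The groups did not overlap, with gld-4(RNAi) higher, for 3 genes in input (11.9% of all features), 13 in NP (19.2%) and 18 in P (18.4%), a share of the 98 genes below that of all features in input and NP and close to it in P. Compared within replicate numbers, gld-4(RNAi) was above control at all 3 numbers for 41 genes in input (41.8%), 68 in NP (69.4%) and 85 in P (86.7%), where 28%, 37.8% and 44% of all features were. The numbers mainly set replicate 1 apart, and a pairing of replicates 2 and 3 across conditions is not established.

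F21F3.3 (icmt-1) was the gene called in input. It had 4.89, 3.14 and 3.44 CPM in gld-4(RNAi) input, against 1.23, 0.465 and 0.511 CPM in control input (log2 fold change 2.39 ± 0.46, SE, edgeR adjusted p = 0.038). Its lowest gld-4(RNAi) input library was above the highest control library. In NP it had 4.88, 2.99 and 4.48 CPM in gld-4(RNAi), against 1.44, 0.539 and 0.280 CPM in control (log2 fold change 2.37 ± 0.64, SE, edgeR adjusted p = 0.053). F46A9.1 was the gene called in NP, with 3.88, 1.88 and 2.63 CPM in gld-4(RNAi), against 0.503, 0.838 and 0.420 CPM in control (log2 fold change 2.18 ± 0.51, SE, edgeR adjusted p = 0.035). These 2 genes did not overlap between the conditions in NP.

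F56D6.9, the gene that was lower in replicate 1 of every group, had the largest fitted change in gld-4(RNAi) in each fraction without being called in any. It had 1.14, 6.55 and 7.60 CPM in gld-4(RNAi) input, against 0.411, 0.664 and 0.909 CPM in control input (log2 fold change 2.92 ± 0.75, SE, edgeR adjusted p = 0.079). In P it had 8.69, 17 and 14.2 CPM in gld-4(RNAi), against 0.444, 2.05 and 1.97 CPM in control (log2 fold change 3.01 ± 0.53, SE, edgeR adjusted p = 0.053). In both, all gld-4(RNAi) libraries were above all control libraries. It was also the gene closest between the RNAi conditions in NP, with 2.48, 7.37 and 8.49 CPM in gld-4(RNAi) NP beside its gld-2(RNAi) values (log2 fold change of gld-2(RNAi) against gld-4(RNAi) 1.07, adjusted p = 0.350).

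**Figure D4:**
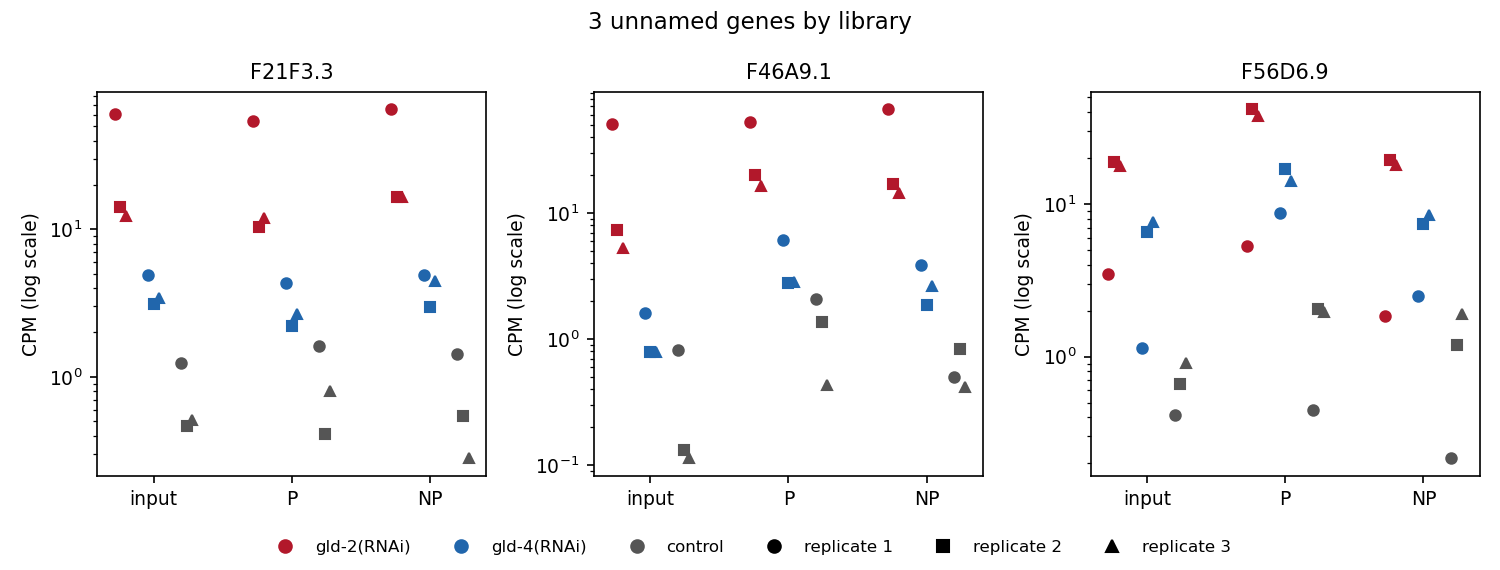
CPM on a log axis of F21F3.3, F46A9.1 and F56D6.9 in each library, by fraction; colours mark the RNAi condition and symbols the replicate. F21F3.3 lies at 3.14 to 4.89 CPM in gld-4(RNAi) input, against 0.465 to 1.23 CPM in control input, and F56D6.9 is lowest in replicate 1 (circles) of every group.

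The size of the gld-4(RNAi) difference followed replicate 1. In replicate 1 the summed level in gld-4(RNAi) was 2.35 times that in control in input, 3.41 times in NP and 3.95 times in P. In replicates 2 and 3 the ratios were 1.55 and 1.72 in input, 1.64 and 1.60 in NP, and 1.93 and 1.85 in P. The sperm marker sums in gld-4(RNAi) were 2.01, 1.29 and 1.15 times those in control in input, 1.75, 1.19 and 1.07 times in NP and 2.65, 1.39 and 1.34 times in P. Leaving out gld-4(RNAi) replicate 1 alone brought the medians to -0.19 in input, 0.05 in NP and 0.01 in P, and leaving out replicate 1 of both conditions brought them to 0.46, 0.56 and 0.60.

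With the replicate block, 13 genes were called higher in input (1.63% of all features), 39 in NP (3.43%) and 18 in P (2.14%). Without replicate 1 of any group, 6 were called in input (1.61%), 7 in NP (1.71%) and 15 in P (2.05%). F21F3.3, F46A9.1 and F56D6.9 were called in all 3 fractions under each of these 2 alternatives, and F52F12.5 was so with the block only. These genes were singled out after their values had been seen.

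The distribution over the gradient was examined in gld-2(RNAi), the condition in which these mRNAs had enough reads. P and NP libraries of a condition with the same replicate number are taken as 1 gradient. Their deposited column names share a prefix for that number, also across conditions, but no label states what the prefix stands for. A ratio of P over NP here is relative to other mRNAs, since the spike-in RNA that the study added to the gradient is not among the features used. The fitted log2 ratio of P over NP had a median of 0.06 over the genes, against 0.01 over all features, and was above 0 for 52 of the 98. With the replicate block the median was 0.13, with 58 genes above 0. Without replicate 1 it was 0.28, against -0.02 over all features, with 69 genes above 0. Of the 98 genes, 0 were called higher in P (11.1% of all features) and 2 were called higher in NP (10.8%). Of the 71 sperm markers, 62 were above 0, with a median of 1.02, and 4 were called higher in P (40 with the replicate block, where 1 was called higher in NP). Without the msp genes the median was lower, at 0.58. Then 31 of 37 markers were above 0 and 4 were called higher in P (11 with the replicate block). The difference between these lists was not tested.

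Both genes called on the NP side were of the pair of equal size. ZC317.6 had 9.42, 11.7 and 10.2 CPM in gld-2(RNAi) P, against 167, 47 and 44.4 CPM in gld-2(RNAi) NP (log2 ratio -2.73 ± 0.65, SE, edgeR adjusted p = 0.019). C18G1.9 had 5.08, 6.25 and 4.81 CPM in gld-2(RNAi) P, against 77.8, 15.2 and 19 CPM in gld-2(RNAi) NP (log2 ratio -2.49 ± 0.75, SE, edgeR adjusted p = 0.042). For both genes every NP library was above every P library. ZC317.6 was on the NP side in the other conditions too, with log2 ratios of -0.62, -0.55 and -1.06 in the gld-4(RNAi) gradients and -1.56, -1.87 and -2.0 in the control gradients.

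The lowest ratio belonged to F55C5.2, with 3.47, 0.658 and 0.706 CPM in gld-2(RNAi) P, against 84.7, 11.5 and 7.80 CPM in gld-2(RNAi) NP (log2 ratio -4.06 ± 1.34, SE, edgeR adjusted p = 0.057). D1081.5, ZK688.10 and W02A2.8 had fitted log2 ratios of -2.88, -2.71 and -2.08 without a call. ZK688.10 had 7.55, 2.96 and 2.44 CPM in P, against 82.7, 12.6 and 13.5 CPM in NP. At the other end F56D6.9 had 5.34, 41.7 and 37.9 CPM in gld-2(RNAi) P, against 1.86, 19.3 and 18.1 CPM in gld-2(RNAi) NP (log2 ratio 1.49 ± 0.96, SE, edgeR adjusted p = 0.271). It was on the P side in all 3 gradients of each condition.

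Taken gradient by gradient, 25 genes had more in P in all 3 gradients of gld-2(RNAi), 27 had more in NP in all 3, and 31 had more in NP in gradient 1 and more in P in gradients 2 and 3. Gradient 1 had the lowest of the 3 ratios for 84 of the 98 genes. R09E10.2 was among the genes that changed side, with log2 ratios of -2.98, 0.09 and 0.29. The medians over the genes were -0.32, 0.17 and 0.22 in gradients 1, 2 and 3 of gld-2(RNAi), 0.90, 0.53 and 0.59 in those of gld-4(RNAi), and 0.67, 0.50 and 0.42 in those of control. In gld-4(RNAi) gradient 1 had the highest of the 3 ratios for 52 genes, and in control for 47.

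**Figure D5:**
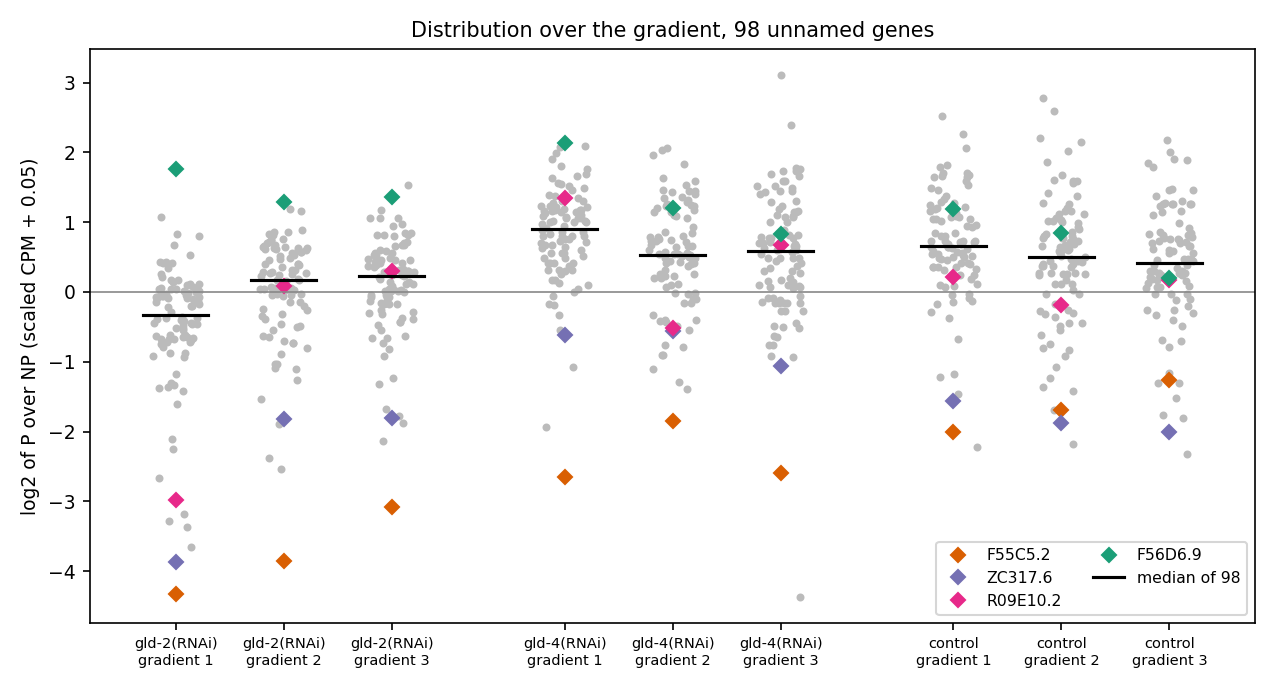
Log2 ratio of P over NP in each gradient for the 98 unnamed genes, from TMM-scaled CPM with 0.05 added; bars are medians and coloured diamonds are F55C5.2, ZC317.6, R09E10.2 and F56D6.9. In gld-2(RNAi) the median is -0.32 in gradient 1 and 0.17 and 0.22 in gradients 2 and 3; F55C5.2 lies between -4.32 and -3.08 and F56D6.9 between 1.28 and 1.77.

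With the replicate block, which here pairs P and NP of the same replicate number, 4 genes were called higher in P (14% of all features) and 6 higher in NP (13.3%). The genes on the P side were C18E9.8, F40G12.10, F56D6.9 and T25B9.6, and those on the NP side F55C5.2, D1081.5, ZK688.10, W02A2.8, F54H5.5 and F47D12.7. ZC317.6 and C18G1.9 were not called with the block (adjusted p = 0.071 and 0.098). Without replicate 1, 9 genes were called higher in P (12.7%) and 8 higher in NP (13.1%), and 3 of the 9 and 5 of the 8 were also called with the block. F55C5.2, D1081.5, ZK688.10, W02A2.8 and F54H5.5 were on the NP side under both alternatives, and C18E9.8, F40G12.10 and F56D6.9 on the P side. Scaling to library totals alone moved the median of all features to -0.38 and that of the genes to -0.35, which leaves the genes where they were relative to other mRNAs, and called 6 of them, all on the NP side.

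Whether the ratio of P over NP differed between gld-2(RNAi) and control was tested as an interaction over 12 libraries. The median change was -0.67 on the log2 scale, against -0.03 over all features, and the ratio was lower in gld-2(RNAi) for all but 7 of the 98 genes. This direction was not particular to them. The median change was -0.39 over 71 sperm markers (10 above 0) and -0.31 over the 25 named genes (7 above 0). It was -0.57 over the 19 oocyte and eggshell genes (4 above 0). Of the 10 sperm fate regulators, 7 were above 0. By edgeR 0 of the 98 genes were called higher (0.778% of all features) and 0 lower (0.1%). An unadjusted p under 0.05 by edgeR was found for 1 gene, and for 1807 of the 11961 features. DESeq2 called 0 of the genes, where it called 108 of all features higher and 30 lower. The control ratios rest on few reads, with a median of 44 counts per gene over the 3 control NP libraries and of 52 over the 3 control P libraries. With a term for the gradient, 11 genes were called lower (3.11% of all features) and 0 higher (1.35%). Without replicate 1 of any group 10 were called lower (4.11%) and 1, C28C12.11, higher (1.86%), and the median change was -0.23.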

How the data were processed

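Per the paper's methods, mRNA was selected with oligo-dT beads and sequenced as single reads. The study found shorter bulk poly(A) tails in gld-2(RNAi) animals, and an effect of tail length on this selection was not tested here. The authors removed adapters with cutadapt, mapped reads to the WS220 genome with TopHat2, retained single-site alignments and summed them over the exons of each gene with featureCounts (Subread 1.4.0). The deposited table holds these raw counts. In the deposited tables of the authors' own comparisons only the name column was read; their fold and p-value columns and 72 per-sample columns were not used. The table holds 0 features named for the luciferase spike-in.

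CPM were computed by library total. Comparisons were fitted with edgeR 4.0.16 (R 4.3.3), TMM scaling and a robust quasi-likelihood test, over 11961 features with at least 100 counts summed over 9 input libraries. Every member passes this filter through the choice itself, by its level in gld-2(RNAi) input. The median member had 59.5 counts over the 3 gld-4(RNAi) input libraries and 29 over the 3 control input libraries. Each fit used the 6 libraries compared (12 for the interaction) without a replicate block, with Benjamini-Hochberg adjustment over all features. Alternatives were the replicate block, DESeq2 1.42.0, library totals alone, 2 other filters, leaving out each library, and other limits. Replicate numbers were checked by correlating deviations from group means: within a fraction or between P and NP, libraries of the same number correlated at 0.39 to 0.86. Numbers 2 and 3 also correlated with each other (0.40 to 0.74). The check thus sets replicate 1 apart and does not show which libraries of numbers 2 and 3 belong together. Lengths, chromosomes and later names are from WBcel235, not the authors' build, so no positions are given. Of the planned sperm list, alg-3 and alg-4 were not used here. The members and gene lists were chosen with earlier results of these data known. Genes were named by level in gld-2(RNAi) input (12 highest), by the largest called changes, by nearness to the limits, and where a gene was not called while the others were; the part of that rule on RefSeq products was not applied. Only the fits of gld-4(RNAi) against control in P and of the P/NP change were run on simulated data. Those data had no replicate 1 that stands apart, and nothing here is read from them. Tables were handled in pandas 2.3.3 under Python 3.11.15 and drawn with matplotlib 3.10.9.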

Additional observations from a re-analysis of the deposited data

Results flagged for a closer look

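The change of the ratio of P over NP between gld-2(RNAi) and control was called for 11 of the 98 unnamed genes when the fit had a term for the gradient (edgeR's quasi-likelihood test, adjusted p at most 0.05). In that fit 3.11% of all features were called lower, and none of the 98 was called without the term. The ratio was lower in gld-2(RNAi) for each of the 11. In the same fit 1 of 71 sperm markers was called lower and 1 higher. Of the 25 named genes within the same limits, 1 was called lower and 1 higher. Of the 19 oocyte and eggshell genes, 2 were called lower and 1 higher. The log2 change was -2.09 for F55C5.2, -1.79 for W09D6.4, -1.78 for K05F1.9, -1.77 for Y54G2A.13, -1.54 for F56F3.4 and -1.40 for ZK616.61. It was -1.38 for R02D5.7, -1.37 for C50F4.10, -1.33 for Y48B6A.5, -1.24 for F36A2.14 and -1.16 for Y49E10.10. Of the 11 genes, 8 were also called without replicate 1 of any group, where 4.11% of all features were called lower. Counts in control are low: F55C5.2 had 4, 4 and 5 counts in control P and 52, 10 and 11 in gld-2(RNAi) P.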

How the results depend on the processing

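Groups of 3 libraries with a replicate that stands apart leave single calls uncertain, and low counts in gld-4(RNAi) and control limit small differences. Members called, of 98, were as follows. With the replicate block they were 97 (NP) and 89 (P) for gld-2(RNAi) against gld-4(RNAi), 13 (input), 39 (NP) and 18 (P) for gld-4(RNAi) against control, 10 for P against NP and 11 for the P/NP change, against 33, 8, 1, 1, 0, 2 and 0 without it. The block changed the counts for gld-2(RNAi) against control in NP and P by less than 1.5 times. Without replicate 1 of any group they were 98, 97, 6, 7, 15, 17 and 11 in the same order of comparisons, and 48 genes met the limits of choice. DESeq2 gave 92 and 55 for gld-2(RNAi) against gld-4(RNAi) in NP and P, 0 and 2 for gld-4(RNAi) against control in input and P, and 7 for P against NP. Over all 11961 features DESeq2 called 1524, 833, 38 and 135 higher in the same order. For P against NP it called 1479 features higher in P and 1362 higher in NP. Library totals alone gave 51 for gld-2(RNAi) against gld-4(RNAi) in NP and 6 for P against NP. Over all features they gave 976 higher for the former, and 516 higher in P and 2331 higher in NP for the latter. The study's filter of a mean of 100 normalized counts kept 38 members: 38 were called in NP and 38 in P against control, 0 in NP and 1 in P for gld-4(RNAi) against control, and 1 for P against NP. Of the 7635 features kept, 691 (NP) and 429 (P) were higher in gld-2(RNAi) than in control. For gld-4(RNAi) against control 65 (NP) and 24 (P) were higher, and for P against NP 955 were higher in P and 997 in NP. Testing every feature with a count gave 9 for gld-2(RNAi) against gld-4(RNAi) in NP, 2 for gld-4(RNAi) against control in NP and 1 for P against NP. Over all features it gave 836 higher of 22008, 86 higher of 21394, and 1491 higher in P with 1313 higher in NP of 21590. Limits of 0.5 and 10 CPM chose 23 genes, limits of 1 and 20 CPM chose 13, and TMM-scaled CPM chose 130, of which 83 were among the 98. With each library left out in turn, the counts were 62 to 98 (NP) and 26 to 95 (P) for gld-2(RNAi) against control, 2 to 93 (NP) and 1 to 93 (P) for gld-2(RNAi) against gld-4(RNAi), 0 to 2 (input), 0 to 2 (NP) and 0 to 1 (P) for gld-4(RNAi) against control, 0 to 17 for P against NP, 0 to 0 for the P/NP change, and 12 to 188 genes within the limits of choice. With a library left out, features called higher were 828 to 1662 (NP) and 294 to 1265 (P) for gld-2(RNAi) against control. For gld-2(RNAi) against gld-4(RNAi) they were 509 to 1505 (NP) and 185 to 1440 (P). For gld-4(RNAi) against control they were 0 to 33 (input), 9 to 92 (NP) and 0 to 50 (P). The fitted log2 ratio of P over NP of R09E10.2 in gld-2(RNAi) was 0.30 without replicate 1. The cause of these changes was not tested.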
